A study of Homo sapiens with 11 samples.

Results

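A673sh, an Ewing sarcoma cell line that carries a doxycycline-inducible shRNA against the fusion oncogene EWS-FLI1, was transfected transiently with a plasmid for an shRNA against FOXO1 (sh-FOXO1) or with the scrambled control plasmid (sh-scrambled). Each was grown with 1 µg/ml doxycycline for 48 h or without it. This gave 4 groups of 2 Affymetrix HG-U133 Plus 2 arrays each: sh-FOXO1 with doxycycline, sh-FOXO1 without, sh-scrambled with doxycycline and sh-scrambled without. These 8 of the 11 arrays of the series were chosen by their labels and form a 2 by 2 design. The other 3 arrays, 1 each, were of A673sh cells without doxycycline that had received AKT-resistant FOXO1, CDK2-resistant FOXO1 or empty vector. All 4 groups carried the inducible hairpin, so an effect of doxycycline itself cannot be told apart from EWS-FLI1 knockdown. The FOXO1 hairpin on these arrays is not identified in the labels, and effects of the hairpin on other transcripts cannot be told apart from FOXO1 silencing in these arrays. The labels say neither whether the 2 arrays of a group came from separate cultures nor what share of cells took up the plasmid, and p-values measure only the spread between these arrays.

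EWS-FLI1 joins the transactivation domain of EWS to the ETS DNA-binding domain of FLI1. It activates many genes, often from GGAA repeats, and represses others, among them genes of mesenchymal differentiation, matrix and inflammation. FOXO1 is a forkhead transcription factor of cell cycle arrest, stress resistance and metabolism that AKT and CDK2 phosphorylate and thereby keep from acting in the nucleus. The question put to the 2 by 2 design was whether the change of each gene upon EWS-FLI1 knockdown differed once FOXO1 was silenced.

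FLI1, whose 3′ part is in the fusion transcript, had log2 levels of 7.17 and 7.25 in sh-FOXO1 cells with doxycycline and 8.84 and 8.56 without it, against 6.92 and 6.93 in sh-scrambled cells with doxycycline and 8.84 and 8.71 without it. It fell with doxycycline by 1.49 in sh-FOXO1 cells and by 1.85 in sh-scrambled cells (standard error, SE, 0.10 each). The difference of these responses was 0.37 (SE 0.14, adjusted p = 0.17), and the other 2 FLI1 probe sets gave −0.01 and −0.13. FOXO1 stood at 5.76 and 5.75 in sh-FOXO1 cells with doxycycline and 4.97 and 4.80 without it, against 7.35 and 7.04 in sh-scrambled cells with doxycycline and 5.86 and 5.81 without it. The sh-FOXO1 arrays were thus lower than the sh-scrambled arrays in both states, with differences of −1.44 with doxycycline and −0.95 without (adjusted p = 0.00014 and 0.00074). FOXO1 rose with doxycycline in sh-scrambled cells, and the doxycycline level in sh-FOXO1 cells lay close to the level of sh-scrambled cells without doxycycline. The doxycycline response of FOXO1 differed by −0.50 (SE 0.16, adjusted p = 0.10) between the cells, and by −0.00055 by another FOXO1 probe set. All 10 listed Ewing sarcoma markers were measured, against 3 of 7 epithelial, 1 of 7 blood cell, 3 of 5 endothelial and 2 of 4 skeletal muscle markers, and no member of the last 4 lists was called in the interaction. Array medians lay between 5.14 and 5.17, and the median difference between the 2 arrays of a group was 0.089 for sh-FOXO1 with doxycycline, 0.095 without, 0.086 for sh-scrambled with doxycycline and 0.12 without.

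The interaction is the log2 fold change with doxycycline in sh-FOXO1 cells minus that in sh-scrambled cells. A gene was called at an adjusted p under 0.05 and an interaction past 0.7 in either direction, a 1.62-fold difference between responses. Of 12326 genes tested, 302 were called lower (2.45%) and 180 higher (1.46%), or 482 in all (3.91%). With an unadjusted p in place of the adjusted one these shares were 2.64% and 1.82%. The lower genes reached −3.92 and had a median of −0.98, while the higher genes reached 2.43 and had a median of 0.86, beside a median of −0.0017 over all genes. The number of higher genes depended on single arrays: it was 108 without sh-FOXO1 doxycycline replicate 2 and 300 without sh-scrambled no doxycycline replicate 1, whereas that of lower genes lay between 238 and 347 when any array was left out.

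With a limit of 1 on the log2 scale, doxycycline raised 896 genes (7.27%) and lowered 786 (6.38%) in sh-FOXO1 cells, against 998 raised (8.10%) and 923 lowered (7.49%) in sh-scrambled cells. Of the 12326 genes, 747 were raised in both cells, 658 were lowered in both and 10128 passed the limits in neither. The effects lay along a line of slope 0.833 across genes when sh-FOXO1 effects were regressed on sh-scrambled effects (Pearson's r = 0.921 over 12326 genes, which are not independent), and of slope 1.02 with the axes exchanged. The median absolute effect was 0.323 in sh-FOXO1 cells and 0.358 in sh-scrambled cells. By these limits 0 genes were raised in one and lowered in the other, and the 98 genes with opposite signs at an unadjusted p under 0.05 in both did not pass the limit of 1 in both. The lower genes were mostly genes that EWS-FLI1 knockdown had raised: 138 were raised in both cells but less in sh-FOXO1 cells, and 84 were raised in sh-scrambled cells only by the limits used. Another 25 were lowered in sh-FOXO1 cells only, 10 were lowered in both and 45 passed the doxycycline limits in neither. Among the higher genes, 39 were raised in both cells, 43 in sh-FOXO1 cells only, 33 were lowered in sh-scrambled cells only, 14 were lowered in both and 51 passed in neither. The interaction is the difference of these same responses, so both divisions describe the called genes and are no separate result.

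**Figure D1:**
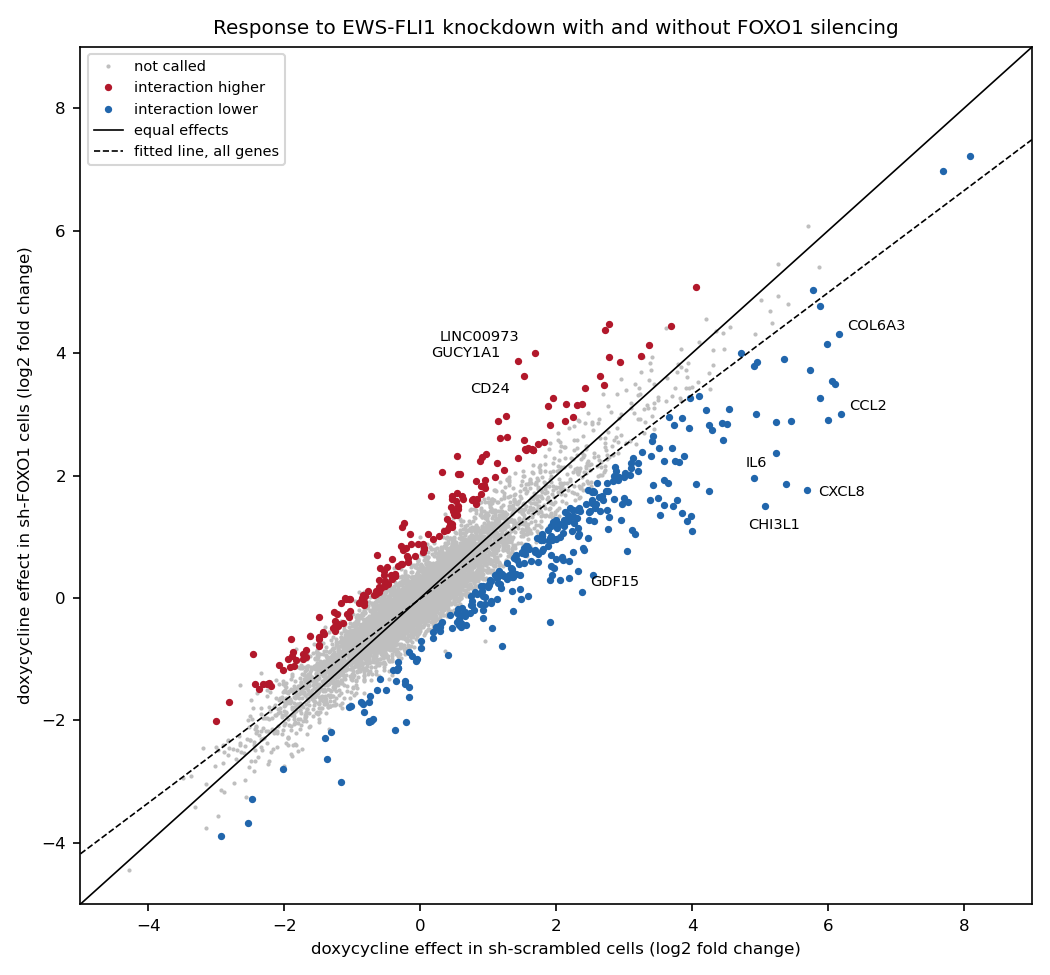
Log2 fold change with doxycycline in sh-FOXO1 cells (vertical axis) against that in sh-scrambled cells (horizontal axis), 1 point per gene for 12326 genes; red and blue points are the 180 genes called higher and the 302 called lower in the interaction, the solid line marks equal effects and the dashed line is the regression over all genes. Blue points lie below the line of equal effects and reach furthest from it on the right, where CXCL8, CHI3L1, CCL2 and IL6 stand.

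A lower or higher interaction can rest on either doxycycline state, since it equals the difference between sh-FOXO1 and sh-scrambled cells with doxycycline minus the same difference without it. For each called gene the share of the interaction found with doxycycline was computed, and a gene was assigned to that state above 66.7% of the interaction, to the state without doxycycline below 33.3%, and to both otherwise. Of the 302 lower genes, 138 (45.7%) rested mostly on the arrays without doxycycline, 83 (27.5%) mostly on the doxycycline arrays and 81 (26.8%) on both. Of the 180 higher genes, 44 (24.4%) rested mostly on the arrays without doxycycline, 94 (52.2%) mostly on the doxycycline arrays and 42 (23.3%) on both. The split of the higher genes depended on single arrays: without sh-scrambled no doxycycline replicate 1 it was 129, 102 and 69 in the same order, and without sh-FOXO1 doxycycline replicate 2 the first of these was 20. When replicate number entered as a block, the first was 71. Whether the splits of lower and higher genes differ was not tested. Of the lower genes, 110 were higher in sh-FOXO1 than in sh-scrambled cells without doxycycline and not called between them with doxycycline, 71 were lower in sh-FOXO1 cells with doxycycline only, and 10 did both, where 425 of all genes (3.45%) were higher and 287 (2.33%) lower in sh-FOXO1 cells without doxycycline, and 380 (3.08%) higher and 292 (2.37%) lower with it. On unlogged group means the sign of the interaction was kept by 286 of the 302 lower genes and by 179 of the 180 higher genes. A single group stood apart from the other 3 in 121 of the 482 genes, by a description from the same means that has no test: sh-FOXO1 with doxycycline in 29 genes (3 lower, 26 higher), sh-FOXO1 without in 23 (15 lower, 8 higher), sh-scrambled with doxycycline in 30 (18 lower, 12 higher) and sh-scrambled without in 39 (24 lower, 15 higher). The other 361 genes had no single such group. Sh-FOXO1 without doxycycline stood apart in 12 genes without sh-scrambled doxycycline replicate 1, and sh-scrambled without doxycycline in 67 genes without sh-scrambled no doxycycline replicate 1.

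**Figure D2:**
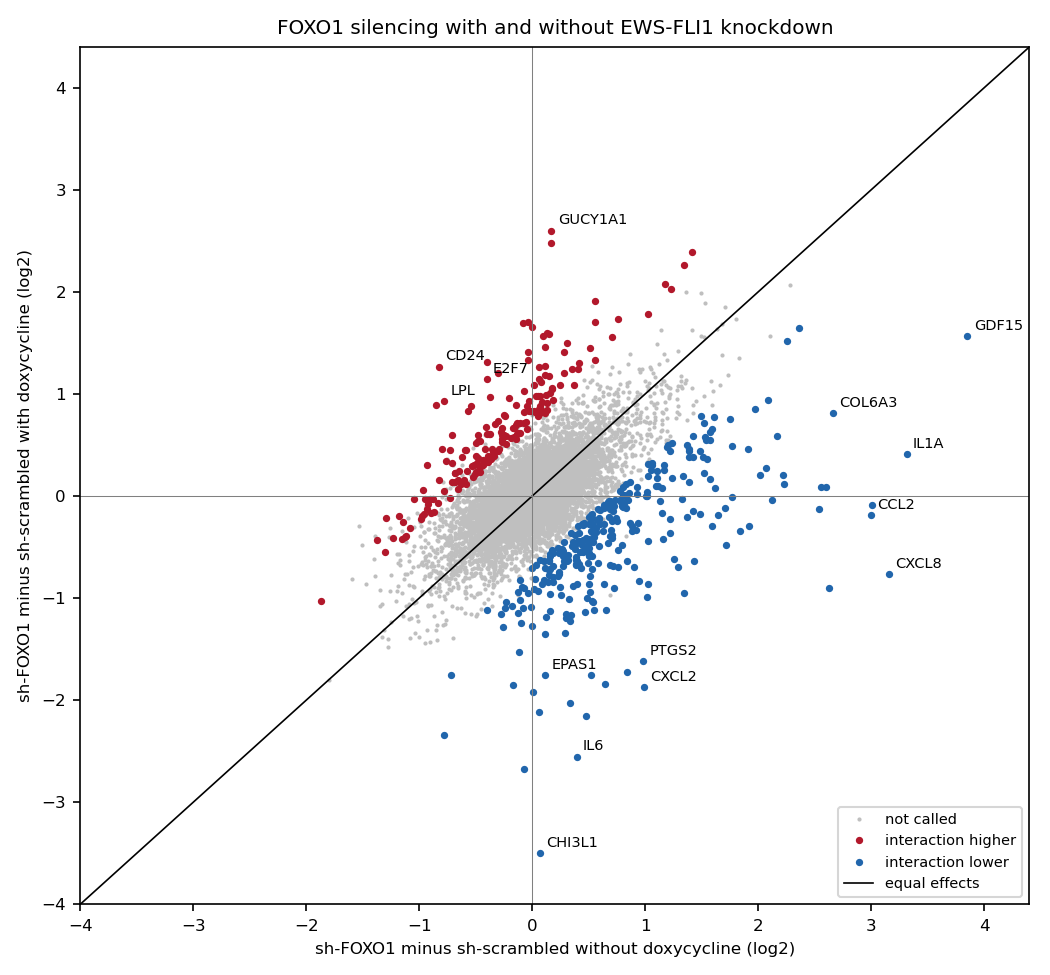
Difference between sh-FOXO1 and sh-scrambled cells with doxycycline (vertical axis) and without it (horizontal axis), log2 scale, 1 point per gene; colours are as called in the interaction and the diagonal marks equal differences. CHI3L1, IL6 and EPAS1 lie straight below the origin, so their interaction rests on the doxycycline arrays, whereas CCL2, IL1A and GDF15 lie far to the right, so theirs rests on the arrays without doxycycline.

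Among genes lower mostly because of the doxycycline arrays, the deepest was CHI3L1, a secreted chitinase-like glycoprotein of inflammation and tissue remodelling. Its log2 levels were 4.91 and 5.06 in sh-FOXO1 cells with doxycycline and 3.41 and 3.55 without it, against 8.46 and 8.52 in sh-scrambled cells with doxycycline and 3.46 and 3.37 without it. Only the sh-scrambled doxycycline arrays were high, and both arrays of sh-FOXO1 cells with doxycycline lay far below them. The interaction was −3.57 (SE 0.12, adjusted p = 1.3e-05), although both groups without doxycycline lay under the lower quartile of array values (4.08). Detection was not assessed, so differences between such dim values are not read here as equal levels, and fold changes from them are uncertain in size. The same holds for both groups without doxycycline of CXCL6, DKK1, FGL2, COXFA4L3, MMP13, NRP2, GREM1 and LINC00973, and for 1 group of CXCL2, NR4A2, PTGS2, KYNU, IL1R1, LGR5, LINC00326, MME and GSTA1. IL6, the cytokine that signals through gp130 and STAT3, had levels of 6.84 and 6.96 in sh-FOXO1 cells with doxycycline and 4.94 and 4.94 without it, against 9.44 and 9.47 in sh-scrambled cells with doxycycline and 4.58 and 4.51 without it. It still rose with doxycycline in sh-FOXO1 cells, by 1.96, but by 4.91 in sh-scrambled cells (interaction −2.95, SE 0.10, adjusted p = 1.3e-05). OSMR, the receptor subunit for oncostatin M, was at 6.39 and 6.46 in sh-FOXO1 cells with doxycycline and 5.18 and 5.01 without it, against 7.61 and 7.54 in sh-scrambled cells with doxycycline and 4.68 and 4.92 without it. Its interaction was −1.45 (SE 0.14, adjusted p = 0.00097), and the other 2 OSMR probe sets gave −1.22 (adjusted p = 0.0017) and −0.45 (adjusted p = 0.052). In the list of oncostatin M, IL6 and STAT3 signalling, 8 of 16 measured genes were called lower and 0 higher, with a median of −0.76, beside 2.45% of all genes called lower. This list, like all others here, was written with earlier results of these data known, so its counts are no independent evidence. CEBPD, a STAT3-induced transcription factor, responded by 2.24 in sh-FOXO1 cells and by 3.75 in sh-scrambled cells, and LIF, another gp130 cytokine, responded by 2.22 in sh-FOXO1 cells and by 3.81 in sh-scrambled cells (interactions −1.51 and −1.60). LIF, unlike the other genes of this paragraph, was assigned to both doxycycline states, with differences between the cells of −0.70 with doxycycline and 0.90 without it.

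EPAS1, which encodes the hypoxia-inducible factor HIF-2α, stood at 8.04 and 8.16 in sh-FOXO1 cells with doxycycline and 5.52 and 5.53 without it, against 9.80 and 9.92 in sh-scrambled cells with doxycycline and 5.41 and 5.41 without it. Without doxycycline the cells differed by 0.11, so the interaction of −1.87 (SE 0.11, adjusted p = 1e-04) came from the doxycycline arrays. MME, the membrane endopeptidase neprilysin, responded by 1.66 in sh-FOXO1 cells and by 2.68 in sh-scrambled cells (interaction −1.02, SE 0.15, adjusted p = 0.0068), and by the brightest MME probe set the interaction was −0.66 and was not called. DKK1, a secreted Wnt antagonist, was at 6.67 and 6.95 in sh-FOXO1 cells with doxycycline and 3.84 and 3.76 without it, against 8.62 and 8.83 in sh-scrambled cells with doxycycline and 3.90 and 3.69 without it (interaction −1.92, SE 0.17, adjusted p = 0.00068). The nuclear receptor NR4A2 had an interaction of −2.64, with a response of 1.34 in sh-FOXO1 cells and 3.98 in sh-scrambled cells. LGR5, a receptor for R-spondins, was lowest in sh-FOXO1 cells with doxycycline (3.63 and 3.73, against 5.98 and 6.06 in sh-scrambled cells with doxycycline), with an interaction of −1.56. In these genes the doxycycline arrays of sh-FOXO1 and sh-scrambled cells did not overlap, which follows from their selection and is no separate result.

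In 6 genes named for it, the sh-scrambled doxycycline arrays stood apart from the other 3 groups. Beside CHI3L1 these were FGL2 (interaction −2.18), COXFA4L3 (−1.69), CYP7B1 (−1.56), SGPP2 (−1.56) and MMP13 (−1.47). On all other arrays CHI3L1 and MMP13 lay under the array medians, so they passed the filter on low values only through this group. FGL2 and COXFA4L3 reached 5.18 and 5.16 elsewhere, near the array medians, and may have passed it only so. That this group stood apart for such genes is therefore no separate result. FGL2, a fibrinogen-like protein with immunoregulatory roles, was at 4.98 and 5.18 in sh-FOXO1 cells with doxycycline and 3.67 and 3.78 without it, against 7.05 and 7.35 in sh-scrambled cells with doxycycline and 3.69 and 3.64 without it. SGPP2, a sphingosine-1-phosphate phosphatase, was at 5.28 and 5.37 in sh-FOXO1 cells with doxycycline and 5.01 and 4.88 without it, against 6.64 and 6.46 in sh-scrambled cells with doxycycline and 4.75 and 4.47 without it. Both rose in sh-scrambled cells to levels that no array of sh-FOXO1 cells reached. CYP7B1, an oxysterol hydroxylase, had uneven sh-scrambled arrays without doxycycline (5.66 and 6.57) and lost its call when any one of 6 arrays was left out, with interactions from −1.43 without sh-FOXO1 doxycycline replicate 1 to −1.69 without sh-FOXO1 doxycycline replicate 2. The other 4 arrays were sh-FOXO1 no doxycycline replicates 1 and 2 and sh-scrambled doxycycline replicates 1 and 2.

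The chemokines, which attract leukocytes, held the lowest interaction of all. In the list of chemokines and their receptors, 10 of 17 measured genes were called lower and 0 higher, with a median of −1.11, beside 2.45% of all genes called lower. They did not all rest on the same arrays: 4 rested mostly on the doxycycline arrays, 4 mostly on those without doxycycline and 2 on both. CXCL8 (interleukin 8) was at 10.03 and 10.32 in sh-FOXO1 cells with doxycycline and 8.09 and 8.71 without it, against 10.79 and 11.10 in sh-scrambled cells with doxycycline and 5.13 and 5.36 without it. Its interaction of −3.92 (SE 0.29, adjusted p = 0.00035) was composed of a difference of −0.77 between the cells with doxycycline and one of 3.16 without it. CCL20 gave −3.53 in the same manner, with differences of −0.90 with doxycycline and 2.63 without. CCL2 was at 11.99 and 11.96 in sh-FOXO1 cells with doxycycline and 8.87 and 9.08 without it, against 12.15 and 12.18 in sh-scrambled cells with doxycycline and 5.92 and 6.03 without it. With doxycycline the CCL2 levels of both cells nearly coincided (difference −0.19), and the interaction of −3.19 (SE 0.12, adjusted p = 1.8e-05) rested on the higher level of sh-FOXO1 cells without it. On the empty vector array, also without doxycycline, CXCL8 was at 7.93, CCL20 at 6.82 and CCL2 at 6.83. These values lay above both sh-scrambled arrays without doxycycline and below both sh-FOXO1 arrays without it. Whether the differences without doxycycline came from FOXO1 silencing or from the sh-scrambled transfection was not tested.

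The CXCL1 family behaved otherwise. CXCL6 was at 6.25 and 6.76 in sh-FOXO1 cells with doxycycline and 3.17 and 3.31 without it, against 9.13 and 9.24 in sh-scrambled cells with doxycycline and 3.37 and 3.25 without it, with an interaction of −2.60 (SE 0.21, adjusted p = 0.00053). Its doxycycline arrays differed between the cells by −2.68, and its values without doxycycline were too dim to compare. CXCL1 was at 8.25 and 8.31 in sh-FOXO1 cells with doxycycline and 5.34 and 5.44 without it, against 10.00 and 10.02 in sh-scrambled cells with doxycycline and 4.59 and 4.52 without it. The difference between the cells was thus −1.73 with doxycycline and 0.84 without it (interaction −2.56), and CXCL3 had −1.84 and 0.64 (interaction −2.49). For CXCL2 the differences were −1.87 with doxycycline and 0.99 without it (interaction −2.87), and it was assigned to both states.

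**Figure D3:**
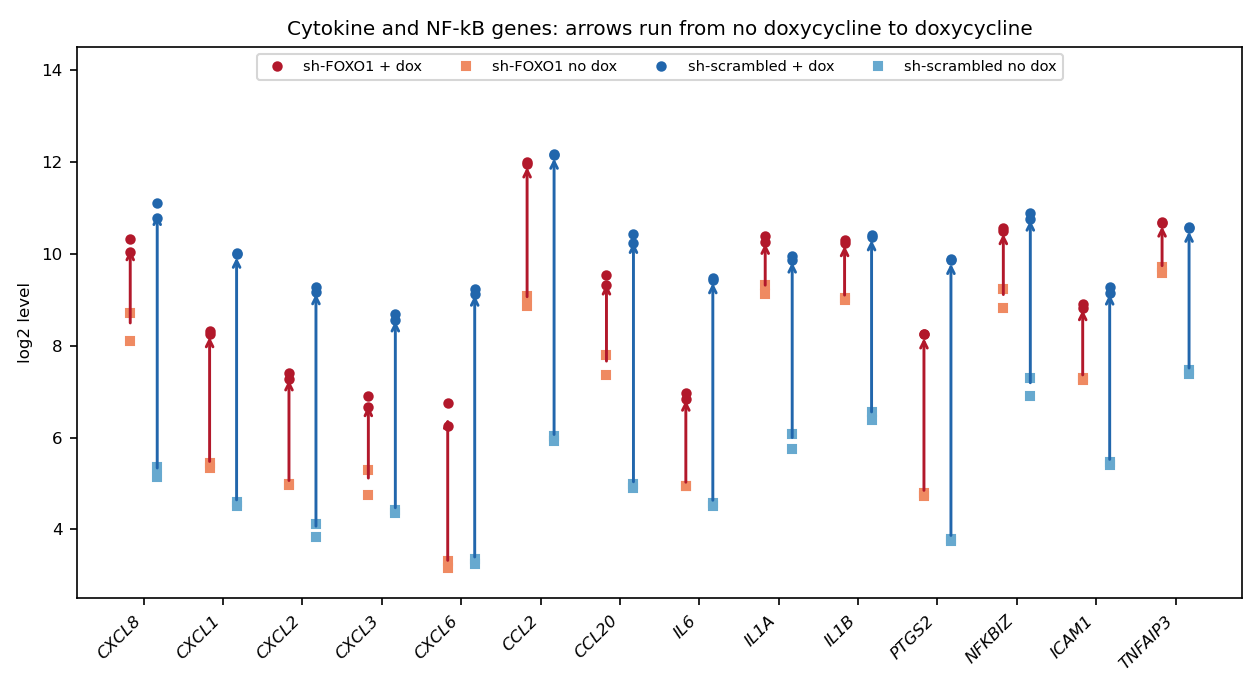
Log2 levels of 14 cytokine and NF-kB pathway genes on the 8 arrays (points), with an arrow from the mean without doxycycline (squares) to the mean with doxycycline (circles), red for sh-FOXO1 cells and blue for sh-scrambled cells. All 14 genes were called lower in the interaction and raised in both cells, so their red arrows are shorter by selection. Members of these lists that were not called are not shown. The red arrows differ mainly by a higher start for CXCL8, CCL2, CCL20, IL1A, IL1B, NFKBIZ, ICAM1 and TNFAIP3. For CXCL1, CXCL2, CXCL3, CXCL6, IL6 and PTGS2 they differ mainly by a lower end.

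IL1A and IL1B, the inflammatory cytokines that signal through the receptor IL1R1, belonged to the genes whose interaction rested on the arrays without doxycycline. IL1A was at 10.25 and 10.38 in sh-FOXO1 cells with doxycycline and 9.13 and 9.32 without it, against 9.87 and 9.94 in sh-scrambled cells with doxycycline and 5.75 and 6.07 without it. IL1B was at 10.30 and 10.23 in sh-FOXO1 cells with doxycycline and 8.99 and 9.03 without it, against 10.37 and 10.41 in sh-scrambled cells with doxycycline and 6.37 and 6.56 without it. For both genes sh-scrambled cells without doxycycline stood apart as the low group, with interactions of −2.91 and −2.67 (SE 0.17 and 0.12, adjusted p = 1e-04 and 2.8e-05). IL1R1 itself had an interaction of −1.66 and also rested mostly on the arrays without doxycycline. PTGS2, the inducible cyclooxygenase of prostaglandin synthesis, was at 8.25 and 8.26 in sh-FOXO1 cells with doxycycline and 4.79 and 4.73 without it, against 9.86 and 9.89 in sh-scrambled cells with doxycycline and 3.76 and 3.80 without it. It was lower in sh-FOXO1 cells with doxycycline (difference −1.62) and higher without it (0.98, interaction −2.60, SE 0.09). PTGER4, a prostaglandin E receptor, had an interaction of −1.58, with 8.17 and 8.42 in sh-FOXO1 cells with doxycycline and 8.53 and 8.49 without it, against 8.44 and 8.58 in sh-scrambled cells with doxycycline and 6.94 and 7.33 without it. In the list of interleukin 1 and prostaglandin genes, 6 of 9 measured genes were called lower and 1 higher, beside 2.45% of all genes lower and 1.46% higher.

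NF-kB is the transcription factor through which interleukin 1 induces many of these genes. Of 19 measured NF-kB subunit and feedback genes 11 were called lower and 0 higher, with a median of −0.87, beside 2.45% of all genes called lower. NFKBIZ, an inducible nuclear IkB protein, responded by 1.50 in sh-FOXO1 cells and by 3.72 in sh-scrambled cells (interaction −2.21, SE 0.22, adjusted p = 0.0011). TNFAIP3 (A20), which ends NF-kB signalling, was at 10.68 and 10.70 in sh-FOXO1 cells with doxycycline and 9.58 and 9.72 without it, against 10.58 and 10.57 in sh-scrambled cells with doxycycline and 7.38 and 7.46 without it. Its interaction of −2.11 and those of the adhesion molecule ICAM1 (−2.18) and of the survival gene IER3 (−1.44) rested mostly on the arrays without doxycycline. The subunit gene NFKB2 differed: its difference between the cells was −1.12 with doxycycline and 0.65 without it (interaction −1.77). Another NFKB2 probe set gave an interaction of −0.55 (adjusted p = 0.069), which was not called, and a difference of 0.07 without doxycycline. SOD2, the mitochondrial superoxide dismutase, which is in the lists of NF-kB and of FOXO targets, had −0.78 with doxycycline and 0.52 without (interaction −1.30, SE 0.16, adjusted p = 0.003).

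**Figure D4:**
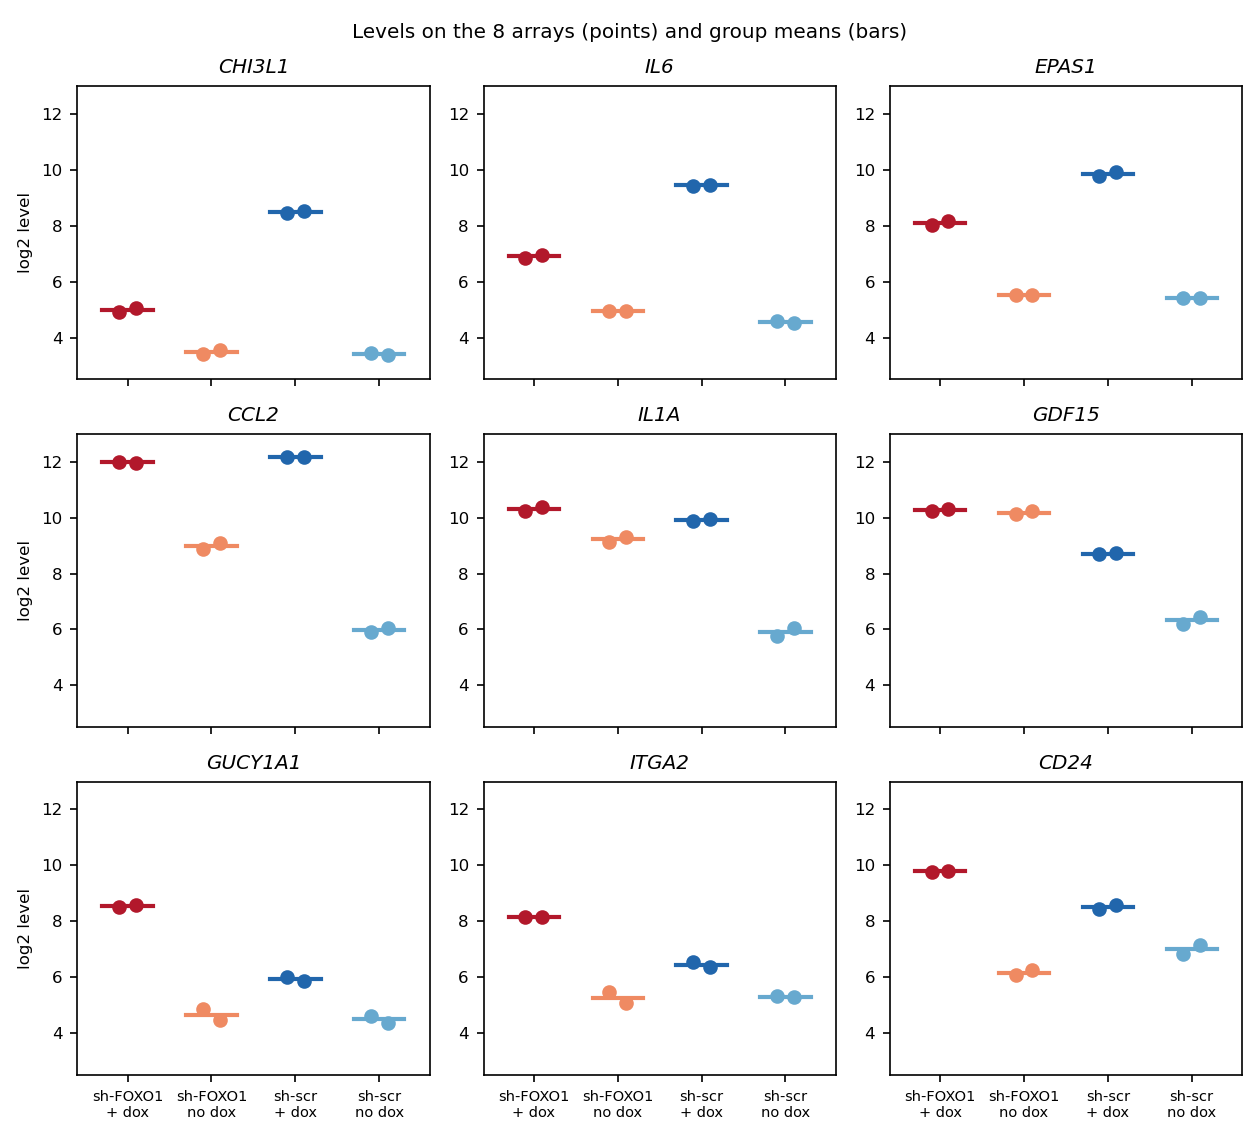
Log2 levels of 9 genes on the 8 arrays (points) with the group means (bars), in the order sh-FOXO1 with and without doxycycline and sh-scrambled (sh-scr) with and without doxycycline. In the top row the sh-scrambled doxycycline arrays alone are highest, in the middle row the sh-scrambled arrays without doxycycline alone are lowest, and in the bottom row the sh-FOXO1 doxycycline arrays are highest.

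GDF15, a stress-induced cytokine of the TGF-β superfamily, showed the largest difference between the cells without doxycycline among the named genes. It was at 10.22 and 10.32 in sh-FOXO1 cells with doxycycline and 10.12 and 10.23 without it, against 8.69 and 8.72 in sh-scrambled cells with doxycycline and 6.20 and 6.45 without it. The response to EWS-FLI1 knockdown was 0.09 in sh-FOXO1 cells and 2.38 in sh-scrambled cells (interaction −2.29, SE 0.13, adjusted p = 1e-04), and GDF15 was higher in sh-FOXO1 cells in both states, by 1.56 with doxycycline and by 3.85 without. TDO2, which opens the breakdown of tryptophan, was at 13.17 and 13.21 in sh-FOXO1 cells with doxycycline and 9.51 and 9.78 without it, against 13.09 and 13.12 in sh-scrambled cells with doxycycline and 6.91 and 7.18 without it. The doxycycline arrays differed by 0.09 for TDO2, by 0.09 for the phosphodiesterase PDE4B and by −0.04 for TCIM, so the interactions of −2.51, −2.46 and −2.16 rested on the arrays without doxycycline. ADM, a vasodilator peptide, gave −2.07 and the mTORC1 inhibitor DDIT4 gave −1.24. ADM, DDIT4 and EPAS1 were among 4 of 23 measured hypoxia genes called lower (beside 2.45% of all genes), with 0 higher and a median of −0.21.

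Immediate early transcription factors were called lower in 5 of 18 measured members (27.8%, beside 2.45% of all genes) and higher in 0 (median −0.51). FOS was at 7.41 and 7.05 in sh-FOXO1 cells with doxycycline and 8.32 and 7.70 without it, against 7.99 and 7.85 in sh-scrambled cells with doxycycline and 6.89 and 6.54 without it. Its response was −0.78 in sh-FOXO1 cells and 1.20 in sh-scrambled cells (interaction −1.99, SE 0.30, adjusted p = 0.0076), of which the first did not pass the doxycycline limit of 1. FOSL2 (−1.78) and EGR3 (−1.58) rested mostly on the arrays without doxycycline. Of 13 MAPK feedback genes 5 were called lower and 0 higher, among them PHLDA1 (−1.13) and the receptor tyrosine kinase inhibitor SPRY2 (−0.86). Other PHLDA1 probe sets gave −0.23 to −1.79, and not all were called. The circadian repressor BHLHE40 and the CLOCK paralogue NPAS2 had −1.13 and −1.58 and were the 2 of 11 circadian genes called. The interferon-induced factor IRF1 (−0.92) was one of 2 of 22 interferon-stimulated genes called lower. Another probe set gave −0.23 for BHLHE40 and −0.23 for IRF1, and neither was called.

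Genes that EWS-FLI1 represses were called lower in 15 of 31 measured members and higher in 0, with a median of −0.65. Like the other lists, this one was written with earlier results of these data known and is no independent evidence of its direction. Its median response was 1.80 in sh-FOXO1 cells and 2.72 in sh-scrambled cells, and its median difference between the cells was 0.017 with doxycycline and 0.49 without. COL6A3, a chain of collagen VI, was at 12.64 and 12.78 in sh-FOXO1 cells with doxycycline and 8.36 and 8.43 without it, against 11.92 and 11.87 in sh-scrambled cells with doxycycline and 5.60 and 5.88 without it. It rose steeply in both cells, by 4.31 in sh-FOXO1 cells and by 6.16 in sh-scrambled cells (interaction −1.85, SE 0.15, adjusted p = 0.00046), and was higher in sh-FOXO1 cells in both states. On unlogged group means the sign of the COL6A3 interaction turned, as did those of COL1A2, IGFBP5, TGFBI, PLAU and SPRY2. COL1A2 (−1.12), the matrix glycoprotein FN1 (−1.30) and TNC (−2.20) also rested mostly on the arrays without doxycycline, but another probe set chosen by the highest mean gave −0.12 for FN1, and one chosen on the 8 arrays alone gave −0.12 for TNC. In all, 7 of 38 matrix genes were called lower (18.4%, beside 2.45% of all genes) and 1 higher. The insulin-like growth factor binding proteins IGFBP3 (−1.09) and IGFBP5 (−1.12) were 2 of 3 lower genes among 13 of the IGF axis. The direction for IGFBP5 rested on its probe set, since the other 5 probe sets gave 0.14 to 1.64.

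Proteases were called lower in 4 of 18 measured members (22.2%), beside 2.45% of all genes. The median response of the measured members was 1.62 in sh-scrambled cells. Of the 998 genes raised in sh-scrambled cells, 138 raised in both cells and 84 raised there only were called lower. Whether proteases or other listed genes differed from these raised genes was not tested. MMP10 (stromelysin 2) was at 10.96 and 11.06 in sh-FOXO1 cells with doxycycline and 7.97 and 8.25 without it, against 11.15 and 11.06 in sh-scrambled cells with doxycycline and 5.05 and 5.15 without it. The doxycycline arrays of both cells nearly coincided for MMP10, and its interaction was −3.10 (SE 0.15, adjusted p = 4.6e-05). The urokinase gene PLAU had −0.91. In the TGF-β and BMP list, with 5 of 22 genes lower and 1 higher, TGFBI had −1.41, the coreceptor TGFBR3 −0.97 and the SMAD corepressor SKIL −0.83, with −0.19 by the SKIL probe set of highest mean.

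Metallothioneins, small proteins that bind zinc and copper, moved as a group. Of 7 measured genes 6 were called lower and 0 higher, with a median of −0.95, beside 2.45% of all genes called lower. All 6 rested mostly on the doxycycline arrays. MT2A was at 11.51 and 11.56 in sh-FOXO1 cells with doxycycline and 9.58 and 9.55 without it, against 12.21 and 12.14 in sh-scrambled cells with doxycycline and 9.23 and 9.27 without it (interaction −0.95, SE 0.09, adjusted p = 0.00097). MT1H (−1.02), MT1X (−0.98), MT1G (−0.98) and MT1E (−0.91) followed within a narrow range. The coding sequences of these genes are closely alike, and their probe sets may share signal, so they do not count as independent.

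A smaller set of lower genes fell with doxycycline in sh-FOXO1 cells, 25 of them only there by the limits used. The 6 genes of largest interaction in which sh-FOXO1 cells without doxycycline stood apart were all of this kind, with that group the high one: the keratin-associated genes KRTAP4-7 (−1.82) and KRTAP4-9 (−1.28), the somatostatin receptor SSTR1 (−1.79), the G protein subunit GNA14 (−1.25), LINC00326 (−1.18) and RGS18 (−1.13). SSTR1 was at 3.56 and 3.67 in sh-FOXO1 cells with doxycycline and 5.97 and 5.59 without it, against 3.36 and 3.32 in sh-scrambled cells with doxycycline and 3.73 and 3.70 without it. For SSTR1 and KRTAP4-7 the other 3 groups all lay under the lower quartile of array values. SSTR1 lay under the array medians on every other array, so it passed the filter on low values only through sh-FOXO1 cells without doxycycline. GNA14 was at 5.18 and 5.23 in sh-FOXO1 cells with doxycycline and 7.19 and 7.25 without it, against 5.11 and 5.03 in sh-scrambled cells with doxycycline and 5.84 and 5.82 without it. LIPI, a lipase gene and Ewing sarcoma antigen, fell by 2.19 in sh-FOXO1 cells and by 1.32 in sh-scrambled cells (interaction −0.87, SE 0.12, adjusted p = 0.0047). It was one of 2 lower genes among 37 EWS-FLI1-activated genes, beside 2.45% of all genes called lower. The others of that list were not called (0 higher, median −0.24). The death receptor gene FAS, the only called gene of 15 p53 targets, had −0.89, and the Wnt antagonist DKK2 fell by 3.68 in sh-FOXO1 cells and by 2.53 in sh-scrambled cells (interaction −1.14).

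The genes called higher were led by GUCY1A1, the α1 subunit of soluble guanylate cyclase, which makes cGMP upon binding nitric oxide. Its levels were 8.50 and 8.57 in sh-FOXO1 cells with doxycycline and 4.86 and 4.46 without it, against 6.0 and 5.87 in sh-scrambled cells with doxycycline and 4.63 and 4.35 without it. It rose by 3.87 in sh-FOXO1 cells and by 1.44 in sh-scrambled cells (interaction 2.43, SE 0.20, adjusted p = 0.00055), and the sh-FOXO1 doxycycline arrays stood apart. Of 7 cGMP genes 2 were called higher and 0 lower, beside 1.46% of all genes called higher. LINC00973, a long noncoding RNA, was at 7.00 and 7.28 in sh-FOXO1 cells with doxycycline and 3.18 and 3.09 without it, against 4.68 and 4.63 in sh-scrambled cells with doxycycline and 3.02 and 2.92 without it (interaction 2.31, SE 0.14, adjusted p = 0.00014). With doxycycline the cells differed by 2.6 for GUCY1A1 and by 2.48 for LINC00973, whereas without it they differed by 0.17 for GUCY1A1 and LINC00973 was too dim to compare. ITGA2, the α2 subunit of a collagen-binding integrin, was at 8.17 and 8.15 in sh-FOXO1 cells with doxycycline and 5.46 and 5.07 without it, against 6.54 and 6.35 in sh-scrambled cells with doxycycline and 5.33 and 5.27 without it (interaction 1.75, SE 0.18, adjusted p = 0.0012). ENDOD1 (1.78), PLEKHH2 (1.51), the integrin subunit ITGB3 (1.48), KITLG (1.46), which encodes the ligand of the receptor KIT, and the glutathione transferase GSTA1 (1.44) had the same shape, with the sh-FOXO1 doxycycline arrays apart. For ITGB3 the probe set of highest mean gave 0.35 and for NAV2, a cytoskeletal gene with an interaction of 1.44, it gave 0.31, and neither was then called.

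Some other genes called higher, CD24, VASH2 and LPL among them, rested on both doxycycline states. CD24, a surface glycoprotein, was at 9.77 and 9.80 in sh-FOXO1 cells with doxycycline and 6.07 and 6.26 without it, against 8.44 and 8.59 in sh-scrambled cells with doxycycline and 6.82 and 7.16 without it. It was thus higher in sh-FOXO1 cells with doxycycline (difference 1.27) and lower without it (−0.83, interaction 2.10, SE 0.17, adjusted p = 0.00053). The vasohibin VASH2 (0.89 with doxycycline and −0.85 without) and the lipoprotein lipase LPL (0.93 and −0.78) crossed in the same way, with interactions of 1.74 and 1.71. These 3 were the genes that passed the limits in both states with opposite signs among the 180 higher genes. The scaffold protein AKAP12 (1.71) and the semaphorin and VEGF coreceptor NRP2 (1.66) rested mostly on the doxycycline arrays, as did E2F7, GREM1 and SESN3. E2F7, a repressor of E2F target genes, was at 7.28 and 7.44 in sh-FOXO1 cells with doxycycline and 8.32 and 8.22 without it, against 6.28 and 6.15 in sh-scrambled cells with doxycycline and 8.61 and 8.75 without it (interaction 1.55, SE 0.13, adjusted p = 0.00055). The Wnt effector LEF1 (1.35) stood against 4 of 16 Wnt and R-spondin genes called lower, beside 2.45% of all genes. The BMP antagonist GREM1 (0.86), the neuropeptides GAL (1.35) and NTS (0.98) and the microtubule-associated MAP1B (0.93) were also called higher. SESN3, a sestrin and textbook FOXO target, was at 8.01 and 8.20 in sh-FOXO1 cells with doxycycline and 6.51 and 6.36 without it, against 7.29 and 7.32 in sh-scrambled cells with doxycycline and 6.58 and 6.80 without it (interaction 1.05, SE 0.15, adjusted p = 0.0054).

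Several lists held few or no genes called in the interaction, where 3.91% of all genes tested were called. At that share lists of this size would hold few called genes, so counts of 0 are not read as results. Among 32 measured FOXO target genes 2 were called lower (6.25%, beside 2.45% of all genes) and 1 higher, with a median of −0.11. Limma called 0 of 40 G1/S and DNA replication genes and 0 of 41 mitotic genes, of which 16 and 9 had an unadjusted p under 0.05, although their median responses were −1.43 and −1.80 in sh-FOXO1 cells and −1.72 and −1.67 in sh-scrambled cells. Their interactions had medians of 0.22 and −0.14, and their median differences between sh-FOXO1 and sh-scrambled cells were −0.087 and −0.52 with doxycycline and −0.38 and −0.40 without it. Cholesterol synthesis genes (18 measured, median 0.21) held 0 called genes as well (4 at an unadjusted p under 0.05), and ATF4 and unfolded protein genes 2 higher and 0 lower of 25. Neuropeptide genes split into 3 lower (17.6%) and 2 higher of 17, and neural genes into 1 lower (7.69%) and 2 higher of 13. Among 11 reference genes 1 was called lower, and it lost the call when single arrays were left out.

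**Figure D5:**
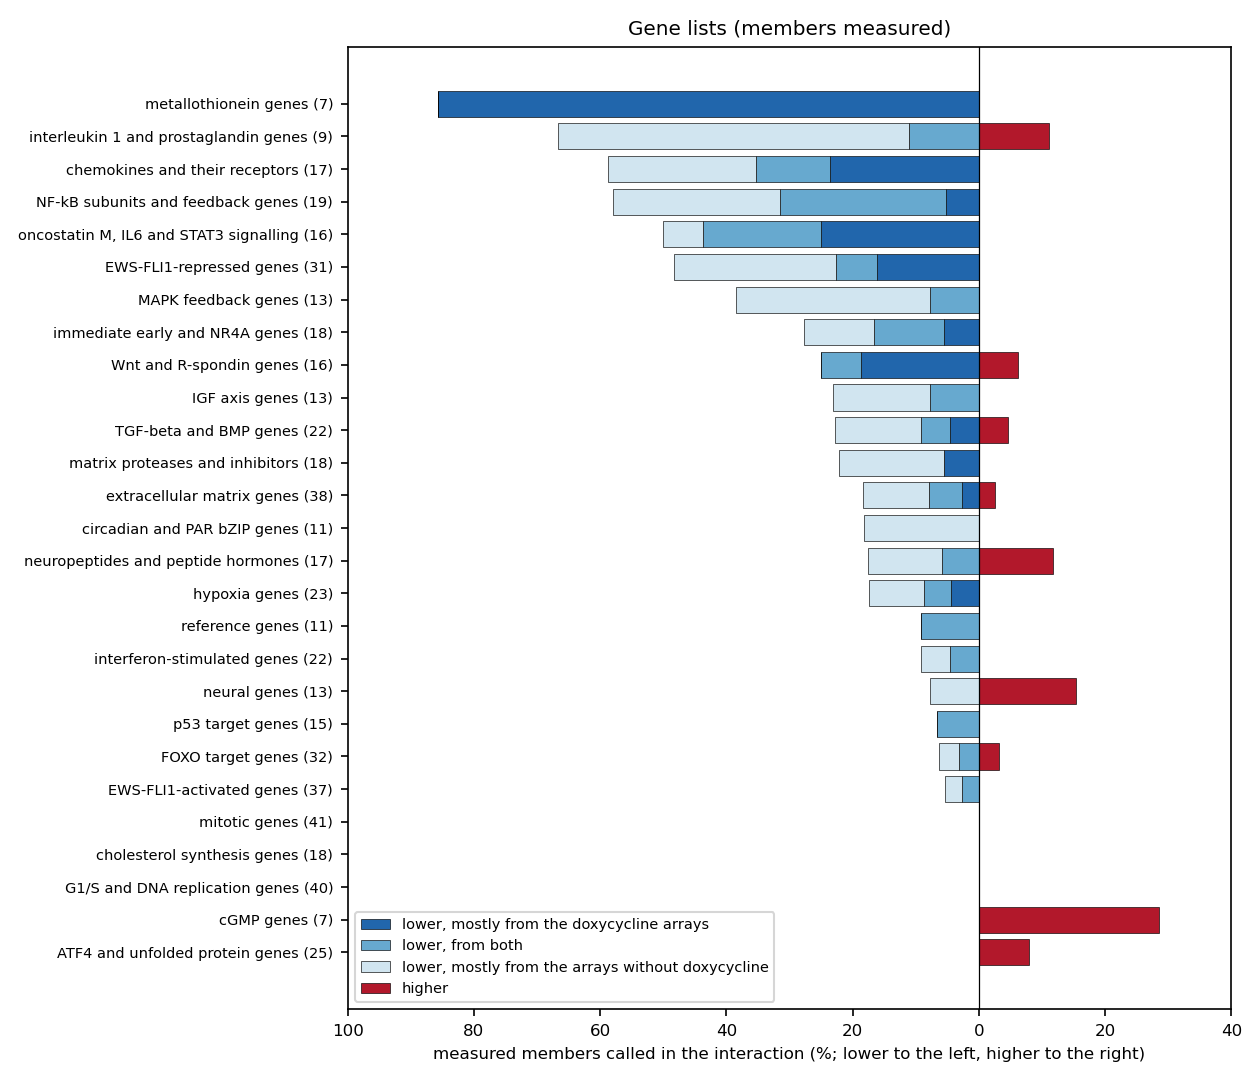
Share of the measured members of each list (number in parentheses) that was called lower (bars to the left, split by the doxycycline state on which the interaction mostly rests) or higher (bars to the right) in the interaction, in percent. The metallothionein, interleukin 1, chemokine and NF-kB lists and that of oncostatin M, IL6 and STAT3 hold the longest bars to the left. The mitotic, G1/S and cholesterol synthesis lists hold none, and over all genes tested 2.45% were called lower. All lists were written with earlier results of these data known, so the bars are no independent evidence.

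The letters bound by FOXO proteins were looked for in the RefSeq promoters, 250 bases before to 50 after the start, of the genes tested. GTAAACA, searched on both strands, was in 9 of 235 promoters of lower genes (3.83%) and in 3 of 142 of higher genes (2.11%), beside 225 of 9988 of the genes tested (2.25%) and 3.41% of all 27305 promoters. The shorter core TAAACA, which every GTAAACA contains, was in 9.79% of lower and 9.15% of higher genes, beside 6.62% of the genes tested and 12.4% of all promoters. The ETS core GGAA in direct tandem was in 7.23% of lower and 4.23% of higher genes, beside 3.42% of the genes tested. These shares are counts of letters and no evidence of binding. The sequences below, from build GRCh38.p14, are the 250 bases before the start, 5′ to 3′ on the strand of the gene. The match is in capitals (TGTTTAC, the reverse complement of GTAAACA). Of the 9 matching lower genes 3 are shown, which need not be those of lowest interaction. They are GDF15 (chr19:18385908-18386157, plus strand, interaction −2.29), KYNU, a kynureninase gene downstream of TDO2 in tryptophan breakdown (chr2:142877414-142877663, plus strand, −1.88), and TSPAN8, a tetraspanin gene (chr12:71158000-71158249, minus strand, −1.29).
GDF15: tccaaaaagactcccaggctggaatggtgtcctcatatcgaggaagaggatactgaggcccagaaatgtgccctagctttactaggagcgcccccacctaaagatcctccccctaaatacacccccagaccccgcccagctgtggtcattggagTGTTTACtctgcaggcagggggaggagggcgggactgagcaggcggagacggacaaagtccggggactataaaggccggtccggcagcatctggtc
KYNU: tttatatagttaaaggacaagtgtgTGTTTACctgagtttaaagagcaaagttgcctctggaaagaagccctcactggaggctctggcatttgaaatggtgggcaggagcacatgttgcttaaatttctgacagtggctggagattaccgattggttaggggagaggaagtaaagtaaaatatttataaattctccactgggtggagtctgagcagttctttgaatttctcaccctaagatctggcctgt
TSPAN8: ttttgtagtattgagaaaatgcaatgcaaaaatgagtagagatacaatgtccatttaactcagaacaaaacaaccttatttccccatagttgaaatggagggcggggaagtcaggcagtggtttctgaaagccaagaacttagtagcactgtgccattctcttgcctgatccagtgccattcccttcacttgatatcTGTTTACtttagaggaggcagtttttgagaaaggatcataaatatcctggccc
KYNU was at 6.28 and 6.52 in sh-FOXO1 cells with doxycycline and 4.67 and 4.88 without it, against 7.25 and 7.28 in sh-scrambled cells with doxycycline and 3.71 and 3.81 without it, and its probe set of highest mean gave −0.39, which was not called. The doxycycline response of TSPAN8 was −1.98 in sh-FOXO1 cells and −0.69 in sh-scrambled cells. The 3 genes with matching letters thus differed in which arrays their interaction rested on: those without doxycycline for GDF15, both for KYNU and those with doxycycline for TSPAN8.

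The mutant FOXO1 arrays gave values of the same genes in cells where EWS-FLI1 was present, with 1 array each and so without a test. AKT-resistant FOXO1 lacks the phosphorylation sites of AKT (T24A, S256A and S319A) and CDK2-resistant FOXO1 those of CDK2 (S249A and S298A). Past 0.7 against the empty vector array, 208 of all genes (1.69%) were higher and 186 (1.51%) lower with AKT-resistant FOXO1, and 213 (1.73%) higher and 190 (1.54%) lower with CDK2-resistant FOXO1. Of the 302 genes with a lower interaction, 38 (12.6%) were higher and 14 (4.64%) lower with AKT-resistant FOXO1, and 31 (10.3%) higher and 17 (5.63%) lower with CDK2-resistant FOXO1. Of the 180 genes with a higher interaction, 11 were higher and 10 lower with AKT-resistant FOXO1, and 5 higher and 8 lower with CDK2-resistant FOXO1. Lower genes that rested mostly on the doxycycline arrays were higher with AKT-resistant FOXO1 in 14 of 83 and with CDK2-resistant FOXO1 in 9 of 83, and those that rested mostly on the arrays without doxycycline in 18 and 15 of 138. Single genes varied within either set. OSMR, MME and EPAS1 were above empty vector by 1.05, 1.48 and 0.90 with AKT-resistant FOXO1 and differed by −0.07, 0.06 and −0.22 with CDK2-resistant FOXO1. The paper picked these genes from those significant in all of its settings, FOXO1 silencing and mutant FOXO1 on these arrays among them. Their rise with AKT-resistant FOXO1 and their lower doxycycline levels in sh-FOXO1 cells follow from that choice and are no separate result. MT1X and MT2A were above it by 1.05 and 1.00 with AKT-resistant FOXO1, whereas CHI3L1, CXCL6, CXCL3 and SGPP2, which also rested on the doxycycline arrays, differed by 0.19, −0.28, −0.49 and −0.48. CCL2, IL1A and IL1B differed from empty vector by −1.28, −0.85 and −0.68 with AKT-resistant FOXO1 and by 2.10, 1.30 and 1.09 with CDK2-resistant FOXO1. ICAM1 differed by 0.06 and 2.11, and MMP10 by 3.70 and 0.05. The empty vector array itself differed from the sh-scrambled arrays without doxycycline. It lay above both for IL1A (7.98), FOSL2 (7.16) and TGFBI (6.95), below both for ICAM1 (4.66) and between them for PTGER4 (7.22). Baselines of the transfections thus varied for genes whose interaction rested on the arrays without doxycycline, and the cause was not tested. SESN3, whose interaction was positive, was above empty vector by 1.60 with AKT-resistant and by 1.61 with CDK2-resistant FOXO1.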

How the data were processed

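RNA of A673sh cells was measured on 11 arrays, of which the 8 shRNA arrays entered the model. For each of 54675 probe sets the authors deposited 1 normalised value from every array, taken here as log2 from their range of 2.60 to 14.6 because the base is not stated. The preprocessing is given only by reference to an earlier publication. No detection calls were used here, and the number of arrays limits the precision. The platform annotation gave 1 gene for 41097 probe sets, several for 1801 and none for 11777, and gene identifiers served to update 99.9% of symbols. A probe set was kept if its value passed the 60th percentile on any of the 11 arrays. The kept probe set with the widest interquartile range stood for its gene, which left 12326 genes.

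Groups came from the sample labels. A limma model of 4 groups (limma 3.58.1, R 4.3.3) with empirical Bayes gave the interaction and the simple effects, with 4 residual and 3.90 prior degrees of freedom and Benjamini-Hochberg adjustment over all genes. Limits were 0.7 for the interaction and for FOXO1 silencing, and 1 for doxycycline effects. A group stood apart where the other 3 group means spanned less than 0.5 of its distance from their mean. The assignment to doxycycline states was chosen after the data were seen. The scripts were tested on simulated data. Promoters were read with Python 3.11.15 and pandas 2.3.3 from RefSeq (build GRCh38.p14), and 377 of 482 called genes matched by gene identifier.

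Named genes were FOXO1, FLI1, EPAS1, MME and OSMR, the 15 lowest and 15 highest interactions, the 6 largest of each class of group standing apart, up to 5 called genes per list and the genes of the promoters shown. Of the list members, 19 that lost their call when 1 array was left out are counted but not named, as was decided after seeing them. The design, the 32 gene lists and the rule for names were chosen with earlier results of these data known. Alternatives were the replicate number as a block, other probe sets, filters, normalisations, limits and model options, and leaving out each array.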

Additional observations from a re-analysis of the deposited data

Results flagged for a closer look

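The named genes below are singled out because the effect of doxycycline differed between sh-FOXO1 and sh-scrambled cells by the test of the interaction itself. Groups of 2 arrays were too small for a test of single outlying arrays. Values are interactions on the log2 scale.

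The chemokine genes CXCL8 (−3.92), CCL20 (−3.53), CCL2 (−3.19), CXCL2 (−2.87), CXCL6 (−2.60), CXCL1 (−2.56) and CXCL3 (−2.49) include the lowest interaction of all. Interleukin 1 and prostaglandin genes had IL1A at −2.91, IL1B at −2.67, PTGS2 at −2.60, IL1R1 at −1.66 and PTGER4 at −1.58. Members of the list of oncostatin M, IL6 and STAT3 signalling were CHI3L1 (−3.57), IL6 (−2.95), LIF (−1.60), CEBPD (−1.51) and OSMR (−1.45). NF-kB pathway genes were NFKBIZ (−2.21), ICAM1 (−2.18), TNFAIP3 (−2.11), NFKB2 (−1.77), IER3 (−1.44) and SOD2 (−1.30). Transcription factors of the immediate early, interferon and circadian lists were NR4A2 (−2.64), FOS (−1.99), FOSL2 (−1.78), EGR3 (−1.58), NPAS2 (−1.58), BHLHE40 (−1.13) and IRF1 (−0.92), and the MAPK feedback genes were PHLDA1 (−1.13) and SPRY2 (−0.86).

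Matrix, protease and growth factor genes were MMP10 (−3.10), TNC (−2.20), COL6A3 (−1.85), MMP13 (−1.47), TGFBI (−1.41), FN1 (−1.30), COL1A2 (−1.12), IGFBP5 (−1.12), IGFBP3 (−1.09), TGFBR3 (−0.97), PLAU (−0.91) and SKIL (−0.83). Stress, hypoxia and metabolic genes were TDO2 (−2.51), PDE4B (−2.46), GDF15 (−2.29), ADM (−2.07), KYNU (−1.88), EPAS1 (−1.87), CYP7B1 (−1.56), SGPP2 (−1.56), DDIT4 (−1.24) and FAS (−0.89). The metallothionein genes were MT1H (−1.02), MT1X (−0.98), MT1G (−0.98), MT2A (−0.95) and MT1E (−0.91). Membrane and secreted proteins were FGL2 (−2.18), DKK1 (−1.92), SSTR1 (−1.79), LGR5 (−1.56), TSPAN8 (−1.29), DKK2 (−1.14), MME (−1.02) and LIPI (−0.87). The remaining lower genes were TCIM (−2.16), KRTAP4-7 (−1.82), COXFA4L3 (−1.69), KRTAP4-9 (−1.28), GNA14 (−1.25), LINC00326 (−1.18) and RGS18 (−1.13).

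Genes with a higher interaction were GUCY1A1 (2.43), LINC00973 (2.31), CD24 (2.10), ENDOD1 (1.78), ITGA2 (1.75), VASH2 (1.74), AKAP12 (1.71), LPL (1.71), NRP2 (1.66), E2F7 (1.55), PLEKHH2 (1.51), ITGB3 (1.48), KITLG (1.46), NAV2 (1.44), GSTA1 (1.44), LEF1 (1.35), GAL (1.35), SESN3 (1.05), NTS (0.98), MAP1B (0.93) and GREM1 (0.86).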

How the results depend on the processing

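With the replicate number as a block, 553 genes were called in the interaction, among them all 482 of the model without it, and higher genes resting mostly on the arrays without doxycycline numbered 71. Same-numbered arrays deviated together (correlations of 0.44 to 0.62 over 6 pairs of groups), but with 2 pairs a comparison the labels do not show a shared culture, and no other count given moved by more than 1.5 times under the block. The probe set of highest mean left 434 calls (391 shared), no filter 516 (472 shared), quantile normalisation 496 (469 shared) and median centring 474 (463 shared). The direction of IGFBP5 turned to 1.64 by another of its probe sets. Of 247 called genes with another kept probe set, 215 had all of the same sign.

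The following counts moved by more than 1.5 times. By the probe set of highest mean, 185 genes were lower in sh-FOXO1 than in sh-scrambled cells without doxycycline. With the 75th percentile filter, 24 higher genes rested mostly on the arrays without doxycycline, and sh-FOXO1 cells stood apart in 19 genes with doxycycline and in 9 without. At an unadjusted p the first of these numbered 72. Without a limit on the log2 scale 389 genes were higher and 559 lower. The lower ones rested on the doxycycline arrays in 171, on both in 148 and on the arrays without doxycycline in 240, the higher ones in 166, 80 and 143. The groups standing apart were sh-FOXO1 with doxycycline in 54 and without in 50, sh-scrambled with doxycycline in 59 and without in 82, and none in 703. With a limit of 1, 55 were higher and 144 lower, with 41, 41 and 62 lower and 33, 16 and 6 higher in the same order. Then sh-FOXO1 without doxycycline stood apart in 8, sh-scrambled with doxycycline in 10 and without in 16, and no group in 145. A range of 0.25 of the distance gave 2 and 4 genes for sh-FOXO1 with and without doxycycline and 4 and 8 for sh-scrambled, and a range of 1 gave 82 and 48, 111 and 157, and 84 with no group. The slope of 0.833 became 0.888 over genes called in sh-FOXO1 cells and 1.02 with the axes exchanged, and the shorter forkhead core gave 9.79% and 9.15%.

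With the mean of the empty vector array and both sh-scrambled arrays without doxycycline as control, lower genes were higher in 92 and 52 cases with AKT-resistant and CDK2-resistant FOXO1, and lower in 2 with CDK2-resistant FOXO1. Higher genes were then lower in 28 with AKT-resistant FOXO1, and higher in 3 and lower in 3 with CDK2-resistant FOXO1. That control shares arrays with the interaction, and of all genes 6.69% were then higher and 4.32% lower with AKT-resistant FOXO1, and 1.76% higher and 0.617% lower with CDK2-resistant FOXO1. With a limit of 1 the lower genes were higher in 19 and lower in 9 with AKT-resistant FOXO1, and higher in 14 and lower in 10 with CDK2-resistant FOXO1. The higher genes were higher in 5 and lower in 0, and higher in 3 and lower in 5. Of all genes 0.73% were then higher and 0.398% lower with AKT-resistant FOXO1, and 0.414% higher and 0.381% lower with CDK2-resistant FOXO1.

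Leaving out each array gave 108 to 300 higher and 238 to 347 lower genes, a lone array being taken to vary like the other groups. Lower genes resting on the doxycycline arrays numbered 67 to 95, on both 67 to 85 and on the arrays without doxycycline 103 to 168, and higher genes 64 to 102, 23 to 69 and 20 to 129. The 108, 23 and 20 came without sh-FOXO1 doxycycline replicate 2, the 64 without sh-scrambled doxycycline replicate 1, and the 300, 102, 69 and 129 without sh-scrambled no doxycycline replicate 1. No group stood apart in 265 to 429 genes, sh-FOXO1 in 24 to 34 with doxycycline and 12 to 30 without, and sh-scrambled in 23 to 34 and 27 to 67. Doxycycline raised 864 to 951 and lowered 718 to 865 genes in sh-FOXO1 cells, against 965 to 1068 and 869 to 1055 in sh-scrambled cells. Between the cells 307 to 432 genes were higher and 255 to 352 lower with doxycycline, and 374 to 528 and 226 to 449 without. The slope was 0.811 and 0.835 in single replicates. The cause of these shifts was not tested, and single arrays or cultures cannot be told apart.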
